A study of Mus musculus with 9 samples.

Results

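Genes that mark the segments of the kidney tubule and glomerulus were bright on the array of 1 mouse of this liver series, the mouse titled control 2, and mostly dim on the other 8 arrays. The set has 47 genes, chosen by their signal on control 2 against the range of the other 8 arrays and ordered by nephron segment. Of these, 43 had a probe set annotated to that gene alone, out of 18193 genes measured in this way. Ggt1, Trpv5, Pax2 and Ren1 were not analysed here. For each gene the probe set with the highest mean log2 signal over the 9 arrays was taken. Because control 2 itself chose the genes, its values are given as a description, and nothing is read from a test that includes them.

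The series measured liver RNA of female MRL +/+ mice, an autoimmune-prone strain, at 11 weeks of age, with 1 Affymetrix array per mouse. Dichloroacetyl chloride (DCAC) was given to 3 mice and dichloroacetic anhydride (DCAA) to 3 mice, each by intraperitoneal injection of 0.2 mmol/kg in 100 µl of corn oil, repeated over 6 weeks. The 3 controls received corn oil alone per the design text and are called untreated in the sample labels. Livers were taken 24 h after the last injection. The labels give every array, control 2 included, as liver.

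Arrays have no read depth, and the number of mice limits the precision. All arrays had been scaled to the same trimmed mean of 500.0. Control 2 had an array median of 184, and the others had 157 to 214. The rank correlation of control 2 with the other arrays was 0.757 to 0.822, and the others correlated with each other at 0.859 to 0.929. Pyruvate carboxylase, whose 3' over 5' probe set ratio climbs when RNA or labelling is degraded, gave a ratio of 3.63 on control 2, against 2.85 to 12.8 elsewhere. Defining liver transcripts were nearly missing on control 2. Of 16 hepatocyte markers measured, 16 lay below all other arrays on it, 15 of them by at least 10-fold, and 2, Fgb and Plg, were at the background floor used here. Over all 18193 genes, 17.8% lay below all other arrays on control 2, and 298 genes did so by at least 10-fold. Ahsg, which encodes the plasma protein fetuin, read 108 on control 2 and 45926 to 66358 elsewhere. The summed signal of the 16 hepatocyte markers was 10484 on control 2 and 640408 to 876997 on the others. Xist, the X-inactivation RNA of female cells, read 9823 on control 2, against 8694 to 17511, and the 3 Y-linked genes measured were within the range of the others.

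The nephron filters blood in the glomerulus, whose podocytes bear a slit diaphragm. The proximal tubule then takes back glucose, amino acids, phosphate, sulphate and filtered protein and secretes organic anions. The loop of Henle, the distal convoluted tubule and the collecting duct set the final salt, divalent cation, acid and water content under hormones such as aldosterone and vasopressin. Each segment is known by its own set of apical and basolateral transporters. Some of these, such as aquaporin 1, the dicarboxylate and the amino acid transporters, are also made in liver.

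Promoter letters are shown for 5 members, picked after the search from the 6 that hold the half-site of HNF1. HNF1 is a transcription factor family active in both the proximal tubule and the hepatocyte. All 6 were above the other arrays on control 2, so signal there does not set the 5 apart. The half-site searched was GTTAAT or its reverse complement ATTAAC, in capitals below, in the window from 250 bases before to 50 bases after the start of the gene (RefSeq, GRCm38.p6, 5′ to 3′ on the gene's strand). It was present in 6 of the 36 listed genes with a promoter entry (16.7%), counted over all starts of a gene, and in 8.24% of all 27025 genes with an entry. The TATA letters TATAAA or TTTATA were present in 10 of the 36, or 27.8%, and in 15.7% of all genes; the 2 motifs can overlap by 1 base at most. The sixth member with the half-site was Slc7a7. Slc34a1 holds it 2 times, with first letters at -89 and -61 from the start, Miox once at -142, Slc22a6 at -56, Slc22a8 at -81 and Umod at -202. These matches describe letters and do not show binding.
Slc34a1 (chr13:55399398-55399697, plus strand): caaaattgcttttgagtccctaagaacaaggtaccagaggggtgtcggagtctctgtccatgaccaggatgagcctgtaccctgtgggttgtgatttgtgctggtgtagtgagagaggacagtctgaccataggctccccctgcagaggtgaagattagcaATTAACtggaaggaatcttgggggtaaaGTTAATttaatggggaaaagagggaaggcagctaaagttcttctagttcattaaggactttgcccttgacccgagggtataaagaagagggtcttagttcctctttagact
Miox (chr15:89334223-89334522, plus strand): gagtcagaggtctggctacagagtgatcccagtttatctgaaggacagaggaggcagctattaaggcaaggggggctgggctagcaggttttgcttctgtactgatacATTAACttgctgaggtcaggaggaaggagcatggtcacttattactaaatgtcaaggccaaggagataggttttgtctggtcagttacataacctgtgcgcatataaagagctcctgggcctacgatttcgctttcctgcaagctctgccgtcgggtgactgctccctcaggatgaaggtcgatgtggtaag
Slc22a6 (chr19:8617746-8618045, plus strand): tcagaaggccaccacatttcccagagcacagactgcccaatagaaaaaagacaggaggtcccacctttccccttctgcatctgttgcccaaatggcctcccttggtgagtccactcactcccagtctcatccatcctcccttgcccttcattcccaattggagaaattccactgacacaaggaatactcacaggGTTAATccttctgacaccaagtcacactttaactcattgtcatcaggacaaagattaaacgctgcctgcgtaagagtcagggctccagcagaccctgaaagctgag
Slc22a8 (chr19:8592932-8593231, plus strand): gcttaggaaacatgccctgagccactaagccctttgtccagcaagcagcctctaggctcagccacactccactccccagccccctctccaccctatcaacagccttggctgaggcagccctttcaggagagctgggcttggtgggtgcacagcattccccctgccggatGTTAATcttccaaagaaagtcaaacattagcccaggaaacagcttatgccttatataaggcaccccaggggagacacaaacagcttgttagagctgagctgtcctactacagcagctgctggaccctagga
Umod (chr7:119479213-119479512, minus strand): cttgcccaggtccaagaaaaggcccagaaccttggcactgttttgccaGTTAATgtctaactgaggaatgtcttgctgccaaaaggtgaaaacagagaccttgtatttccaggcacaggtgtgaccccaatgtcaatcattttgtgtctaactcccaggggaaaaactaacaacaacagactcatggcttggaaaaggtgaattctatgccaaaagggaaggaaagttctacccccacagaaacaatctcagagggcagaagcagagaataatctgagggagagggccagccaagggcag

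On control 2, 40 of the 43 members were above the highest of the other 8 arrays, and 24.2% of all genes were. At least 10 times the highest of the other 8 was reached by 22 of the 43 and by 1.01% of all genes. Both counts follow from how the set was chosen. Signals below an array's 25th percentile were first set to that percentile, the floor, so a ratio against arrays that all lie at the floor is a lower bound. The median ratio of control 2 to the highest other array was 11.3, with a range of 0.378 to 167. The 43 signals summed to 353894 on control 2, or 1.09% of the array's total, and to 10202 to 14885 on the others, or 0.026% to 0.0393%. No member was at the floor on control 2, and 4 to 10 were on each of the other arrays. In these bulk samples, more cells of a type and more RNA per cell cannot be told apart. The dot plot of all 43 members shows the separation gene by gene.

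**Figure D1:**
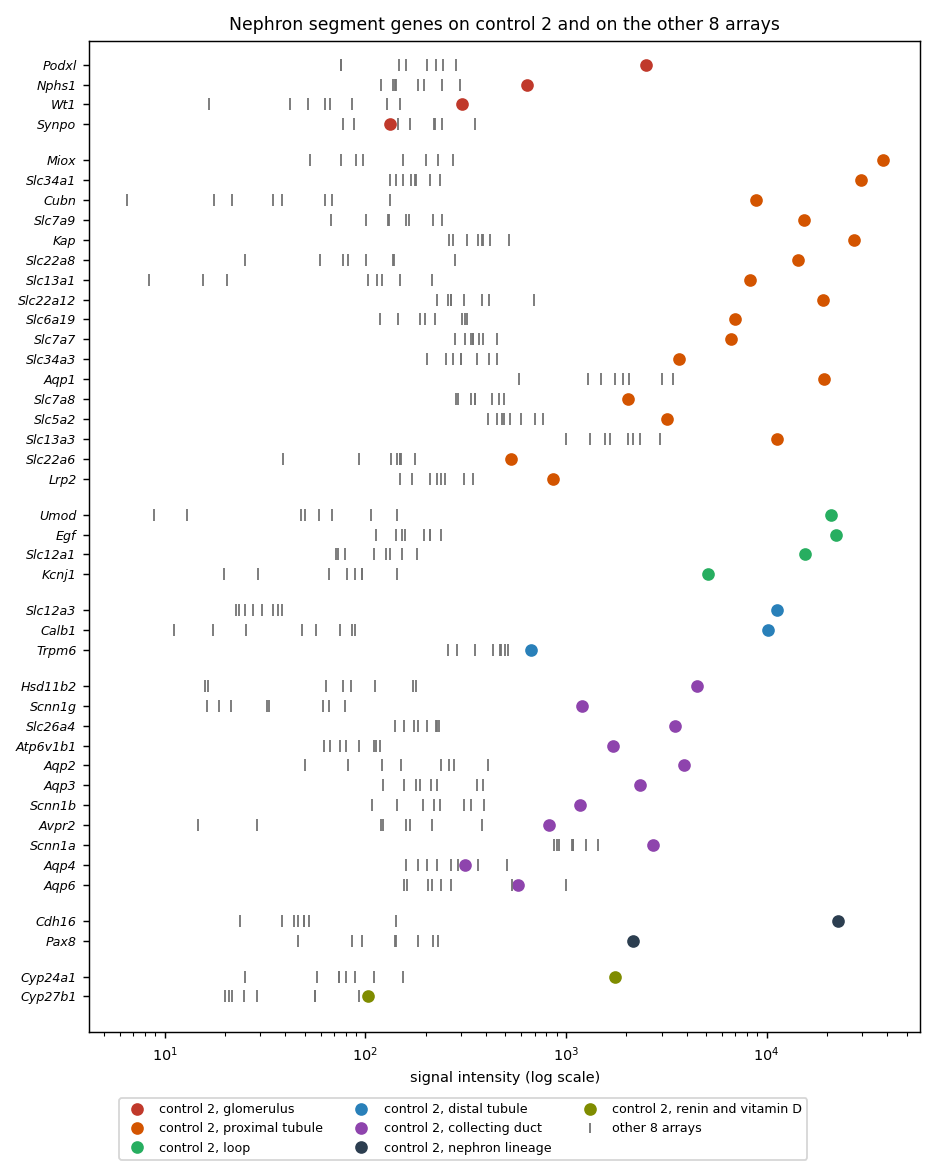
Signal intensity (log scale) of the 43 members, 1 probe set per gene; filled circles are control 2, coloured by segment, and grey ticks are the other 8 arrays. 40 circles lie to the right of all their ticks; Synpo, Aqp4 and Aqp6 do not.

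Proximal tubule genes made up the largest group, and 17 of 17 measured were above the other 8 arrays, 10 of them at least 10-fold. Miox, the myo-inositol oxygenase of proximal tubule cells (chromosome 15, 89334473 to 89337007, GRCm38.p6), read 37874 on control 2, against a lowest of 53.1, a median of 126 and a highest of 273 on the others, which is 139 times the highest. Slc34a1, the main phosphate cotransporter of the brush border (chromosome 13, 55399622 to 55414695), read 29632, against 134 to 236 with a median of 173, or 126 times the highest. No other array came near these values.

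The receptors that take up filtered protein were high on control 2 as well. Cubn, which encodes cubilin, read 8875, against a lowest of 6.5, a median of 36.7 and a highest of 133, or 66.8 times the highest. For Lrp2, which encodes its partner megalin, the probe sets differed widely. The one taken by the rule read 865 against 149 to 343, only 2.52 times the highest, and the other probe sets read 18771 against 8.9 to 82.8 and 15755 against 43.2 to 258.

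Among amino acid transporters, Slc7a9, the light subunit of the cystine transporter, read 15421 on control 2, against 67.9 to 242 (median 146), or 63.6 times the highest. Slc6a19, the apical neutral amino acid transporter, read 6955 against 118 to 323 (median 211), or 21.5 times the highest. The basolateral transporters Slc7a7 and Slc7a8, which also serve other epithelia, stood at 14.6 and 4.14 times the highest. Both were above the array median on all 8 other arrays.

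Of the organic anion and urate carriers, Slc22a8, the basolateral anion exchanger, read 14281 against 25.2 to 279 (median 91.1), or 51.1 times the highest. Its other probe set stood at 13.0 times. Slc22a12, the urate transporter, read 19004 against 227 to 691 (median 289), or 27.5 times. Slc22a6 lies 6.16 kb from Slc22a8 on chromosome 19 and stood at 2.99 times by the probe set taken, with 530 against 38.9 to 177, and at 22.9 times by its other probe set.

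Sodium-coupled carriers completed the segment. Slc13a1, the sulphate cotransporter, read 8305 against 8.4 to 215, or 38.6 times the highest. Slc34a3, a second renal phosphate cotransporter, stood at 8.05 times. Slc5a2, the glucose cotransporter of the early proximal tubule, read 3181 against 407 to 771, or 4.13 times, and 25.3 times by its other probe set. Slc13a3, the dicarboxylate cotransporter, read 11238 against 1002 to 2951, or 3.81 times, and 2 of its 4 probe sets were above. Aqp1, the water channel of the proximal tubule and of many endothelia, read 19406 against 584 to 3420, or 5.68 times. Both Slc13a3 and Aqp1 were above the array median on all 8 other arrays.

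Kap, the androgen-regulated kidney protein of mice, read 27176 on control 2, against 263 to 518, or 52.4 times the highest. Its other probe set read 30578 on control 2, 306 on control 3 and 8.6 to 45.1 on the remaining 7 arrays. The probe set taken read 385 on control 3, within the range of the others.

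All 4 loop genes were at least 10-fold above by the probe set taken. Umod, which encodes uromodulin of the thick ascending limb (chromosome 7, 119462708 to 119479262), read 20921 on control 2, against a lowest of 8.9, a median of 54.6 and a highest of 143, or 146 times the highest. Egf, the growth factor precursor made in the thick limb and distal tubule, read 22098 against 113 to 238, or 92.8 times. Slc12a1, the apical sodium, potassium and chloride cotransporter, read 15505 against 71.5 to 181, or 85.7 times. The other Slc12a1 probe set read only 216 against 61.5 to 194, or 1.11 times. Kcnj1, the potassium channel that works with Slc12a1, read 5134 against 19.7 to 143, or 35.8 times. The median ratio of the segment was 89.2.

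In the distal tubule, Slc12a3, the thiazide-sensitive cotransporter (chromosome 8, 94329109 to 94366222), read 11273 on control 2 against 22.7 to 38.5. All 8 other arrays were at the floor, so it was at least 167-fold higher. Its other probe set read 12.6 against 12.1 to 84.5, within the range. Calb1, the calcium-binding calbindin, read 10185 against 11.1 to 89.1, or 114 times the highest, and all 4 of its probe sets were above the other arrays. Trpm6, a magnesium channel, read 667 against 258 to 513, only 1.3 times the highest, and was above the array median on every array.

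Collecting duct genes had smaller ratios, with a median of 6.06 over 11 genes, and 9 of the 11 were above. Hsd11b2, which shields the mineralocorticoid receptor from glucocorticoids, read 4503 against 16 to 179, or 25.2 times the highest. Scnn1g, a subunit of the epithelial sodium channel, read 1199 against 16.3 to 79.6, or 15.1 times. The other subunits Scnn1b and Scnn1a stood at 3.01 and 1.88 times, and Scnn1a was above the median on all 8 other arrays, at 869 to 1444. Of the markers of intercalated cells, Slc26a4, the chloride and bicarbonate exchanger pendrin, stood at 15.1 times and Atp6v1b1, a proton pump subunit, at 14.5 times, while Aqp6 was not above by the probe set taken.

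The water channels and the vasopressin receptor gave mixed values. Aqp2, the vasopressin-regulated water channel, read 3884 against 50.4 to 410, or 9.46 times the highest. Avpr2, the vasopressin receptor, stood at 2.15 times. Aqp3, a basolateral water channel, read 2332 against 122 to 385, or 6.06 times, and 3 of its 4 probe sets were above. Aqp4, the other basolateral channel, read 314 against 161 to 508 by the probe set taken, within the range of the others, while its other probe sets read 1343 against 121 to 198 and 1745 against 107 to 247. Aqp6, an intracellular channel of intercalated cells, read 578 against 157 to 997, also within the range. Another Aqp6 probe set read 1570 against 7.6 to 29.3, with all other arrays at the floor.

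The glomerulus had the smallest ratios, with a median of 2.10 and no gene at 10-fold. Podxl, the sialoprotein podocalyxin of podocytes and endothelium, read 2518 against 75.5 to 284, or 8.87 times the highest. Its other probe set read 364 against 54.1 to 295, or 1.23 times. Nphs1, which encodes nephrin of the slit diaphragm, read 640 against 120 to 296, or 2.16 times, and Wt1, a podocyte transcription factor, read 303 against 16.7 to 149, or 2.04 times. Synpo, which encodes the foot process protein synaptopodin, read 133 against 77.3 to 351 and thus lay within the range. Its other probe set read 906 against 25.1 to 232.

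Of the genes that mark the nephron lineage, Cdh16, a cadherin of tubule epithelium (chromosome 8, 104601915 to 104624396), read 22674 against 23.8 to 142, or 160 times the highest. Pax8, a transcription factor of the renal and thyroid lineages, read 2161 against 46.5 to 232, or 9.33 times. Its other probe set read 68.2 against 18.8 to 193, within the range. Of the vitamin D enzymes, Cyp24a1, which inactivates the hormone, read 1748 against 25.1 to 154, or 11.3 times. Cyp27b1, which activates it, read 103 against 20.0 to 93.1, or 1.11 times, the member closest to the range of the others among those above it. This reading lay below control 2's own array median of 184, and 7 of the other 8 arrays were at the floor for Cyp27b1. Aqp4, at 0.619 times, was the closest among those that were not above.

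**Figure D2:**
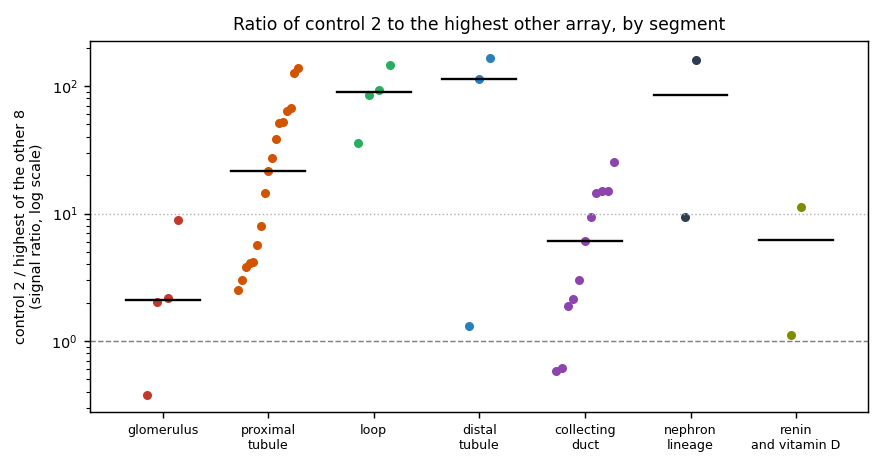
Ratio of control 2 to the highest of the other 8 arrays (log scale) for each member, by segment; each point is a gene, the bar is the segment's median, and the dashed and dotted lines mark 1 and 10. Loop genes had a median of 89.2 and glomerular genes of 2.10.

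Several probe sets existed for 24 members. For 17 of the 24 every probe set was above the other arrays, and each of the 43 members had at least 1 that was; in all this held for 68 of 77 probe sets. The exceptions lay within the genes Synpo, Slc13a3, Slc12a3, Aqp3, Aqp4, Aqp6 and Pax8.

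A list of 88 further nephron genes, not members, was read in the same way. It was drawn up with earlier results of these data known, so it is description too. Of the 77 measured, 65 were above the other 8 arrays on control 2, 30 of them at least 10-fold. Over all genes 24.2% were above and 1.01% at least 10-fold, the shares to set beside each segment's count below. Proximal tubule genes of the list had 29 of 33 above, among them Napsa, an aspartic protease, at 166 times the highest, Cltrn, the collectrin partner of Slc6a19, at 148 times, and Fut9 at 54.4 times. In the loop 6 of 6 were above, led by the claudin Cldn10 at 21.2 times. In the distal tubule 8 of 9 were above, with the calcium-binding S100g at least 100-fold, Fxyd2, a sodium pump subunit, at 73.1 times and Kl, which encodes klotho, at 52.2 times. In the collecting duct 12 of 15 were above, with the ammonia transporter Rhcg at least 24.0-fold and Foxi1, a factor of intercalated cells, at 16.9 times.

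Other glomerular genes again showed small ratios, with 7 of 8 above and 0 at 10-fold; Foxc2 was at least 5.20-fold higher and Clic5 stood at 2.49 times. Of 4 lineage genes 2 were above, led by the homeobox gene Emx2 at 15.1 times, and of the hormone genes Vdr, the vitamin D receptor, stood at 6.92 times. Those below every other array were Slc2a2, the glucose transporter shared by hepatocytes and tubule, at 3830 against 9000 to 14315, together with Anpep, Agxt2 and Agtr1a, which liver also makes; these 4 are named after their values were seen.

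Markers of other tissues near the kidney or liver were mostly within or below the range of the others. None of 10 adrenal, 5 intestinal, 6 urothelial, 2 adipose, 6 lymphoid, 5 skeletal muscle and 2 thyroid markers was above the other arrays on control 2. Of 6 pancreatic markers Cela1, an elastase, was above, at 5150 against 1245 to 2513, and of 3 lung markers Scgb1a1 was, at 120 against 7.0 to 83.3. The summed adrenal signal was 1468 on control 2 and 1578 to 2981 on the others. The summed plots of members, other nephron genes and hepatocyte markers show control 2 outside the range of the other 8 arrays in each.

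**Figure D3:**
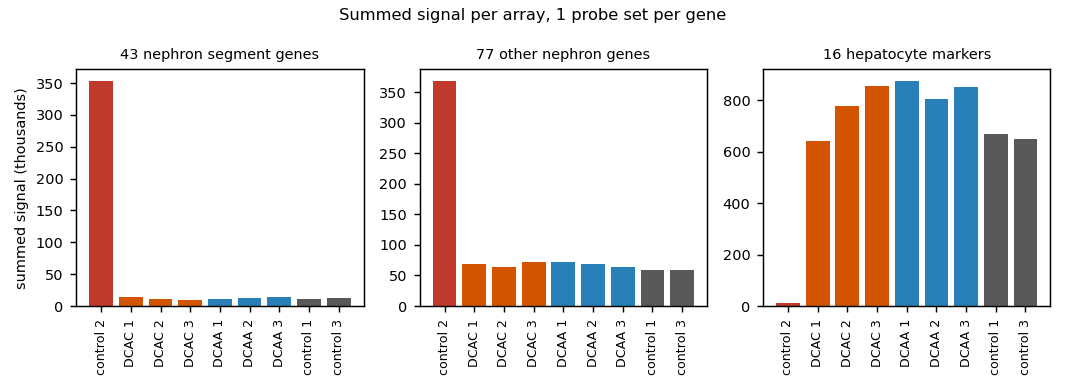
Summed signal per array of the 43 members, the 77 other nephron genes and the 16 hepatocyte markers, with control 2 in red, DCAC in orange, DCAA in blue and the other controls in grey; bars start at 0. Members summed to 353894 on control 2 and to at most 14885 elsewhere, and hepatocyte markers to 10484 and at least 640408.

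On the 8 arrays without control 2 the members were low and uneven. A signal above the array median on all 8 was found for 10 members, namely Slc34a3, Slc5a2, Slc22a12, Slc7a7, Slc7a8, Slc13a3, Kap, Aqp1, Trpm6 and Scnn1a. For 12 members, Umod, Cdh16, Slc12a3 and Calb1 among them, none of the 8 arrays was above its median. DCAA 3 held the highest of the 8 signals for 16 of the 43 members, or 37.2%, and for 29.3% of all genes. DCAC 1 did so for 9 members, or 20.9%, and 8.61% of all genes, and DCAA 1 for 7, or 16.3%, and 10.6%. Each remaining array held a smaller share of members than of all genes. DCAA 3 also had the highest median of all, 214. It held 11 members after quantile normalization, and after scaling to a common median it held 9 and DCAA 1 held 10.

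The remaining question is whether the members differed with treatment in the other 8 mice. The choice of genes and probe sets used control 2 and the pooled levels of these mice, not their treatment. Of the 43 members, 25 passed the filter on low signal (above the array median on at least 3 of the 8 arrays). This filter can be passed through treated mice alone, as Slc6a19 and Aqp6 did among others. By limma with Benjamini-Hochberg adjustment over all 24509 probe sets, 0 of the 25 were called for DCAC against control, where 0.0326% of all probe sets were, and 1 had an unadjusted p under 0.05, as did 5.02% of all probe sets. For DCAA against control 0 of the 25 were called, against 0.0816% of all, and 4 had an unadjusted p under 0.05, as did 12.6% of all. For DCAC against DCAA 0 were called, against 0.00408% of all, and 2 had an unadjusted p under 0.05, as did 9.27% of all. The median log2 difference of the 25 was 0.01 for DCAC, with 14 higher, and 0.07 for DCAA, with 15 higher. Over all probe sets it was -0.03 and -0.01, with 46.1% and 49.2% of them higher. Members that passed the filter through treated mice alone can raise these member counts. The median 95% interval of a member against control, without adjustment, reached 1.86-fold either way, and with 2 controls differences within it were not detectable. Because a call needs an adjusted p, larger differences can also go uncalled.

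The members with the smallest p-values are given by mouse. Slc6a19 read 304, 224 and 198 in DCAC livers and 323, 187 and 313 in DCAA livers, against 118 and 146 in controls. Every treated mouse was above both controls, by 0.86 in log2 (95% interval 0.02 to 1.70) with DCAC and 1.02 (0.18 to 1.87) with DCAA. Neither passed (limma adjusted p = 0.967 and 0.318). Both comparisons share the controls. Slc6a19 passed the filter on low signal only through treated mice, since both controls lay below their array medians. The filter therefore favoured treated above control for it, and its intervals and p-values are description only.

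Aqp6 read 205, 269 and 238 in DCAC livers and 214, 537 and 997 in DCAA livers, against 157 and 161 in controls. The DCAA mice were spread widely and all above the controls, at 1.61 in log2 (95% interval 0.53 to 2.69, limma adjusted p = 0.234). Without DCAA 1 the difference was 2.20 and passed (limma adjusted p = 0.0343), and without DCAA 3 it was 1.09 (adjusted p = 0.426). A second Aqp6 probe set that passed the filter gave 0.30 (limma adjusted p = 0.80). On neither of these 2 probe sets was control 2 above the others. The first passed the filter only through treated mice, with both controls below their array medians, so the filter favoured treated above control for it. Its intervals and p-values against control are therefore description only, and so is the pass without DCAA 1. The difference of DCAC from DCAA was -1.04 (-2.0 to -0.08, adjusted p = 0.517), with DCAC 2 and DCAC 3 above DCAA 1, and -0.52 without DCAA 3 and -1.63 without DCAA 1.

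Scnn1a read 1084, 903 and 1087 in DCAC livers and 1259, 1070 and 1444 in DCAA livers, against 869 and 923 in controls. DCAA stood 0.48 above control (95% interval 0.07 to 0.89, limma adjusted p = 0.332), with no overlap, and DCAC 0.29 below DCAA (-0.66 to 0.08, adjusted p = 0.590). Slc5a2 read 455, 493 and 407 in DCAC livers and 771, 594 and 699 in DCAA livers, and 527 and 481 in controls. DCAC lay below DCAA in every mouse by this probe set, at -0.60 (-1.02 to -0.19, limma adjusted p = 0.45). The second Slc5a2 probe set tested gave -0.35 (limma adjusted p = 0.70) and overlapped, with DCAC 2 at 237.5 above DCAA 1 at 236. The 3'/5' ratio of pyruvate carboxylase was 2.85, 3.99 and 12.8 in DCAC livers and 6.43, 8.38 and 10.9 in DCAA livers, against 3.93 and 3.32 in controls. Every DCAA mouse was above both controls, and the actin and Gapdh ratios were ordered likewise. For DCAA against control, this ratio and the treatment therefore cannot be told apart, for Aqp6, Slc6a19 and Scnn1a included. A fit with ratio class as a block separates them only through DCAC 3, and the part of the ratio in the results was not tested further.

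Slc13a3 read 1568, 2042 and 2152 in DCAC livers, against 1002 and 1663 in controls, and overlapped, at 0.56 (95% interval -0.11 to 1.23, limma adjusted p = 0.967). Its other probe sets tested went both ways with DCAC, at 0.75 and -0.89 (limma adjusted p = 0.947 and 0.977). In DCAA livers the probe set taken read 1321, 2951 and 2345 and overlapped the controls, at 0.70 (0.02 to 1.37, limma adjusted p = 0.387). The other Slc13a3 probe sets gave 0.61 and -0.45 with DCAA (limma adjusted p = 0.425 and 0.799). Aqp4 read 183, 365 and 289 in DCAC livers, against 202 and 161 in controls, at 0.57 (-0.32 to 1.47, adjusted p = 0.977). Its other probe set tested gave 0.04 (limma adjusted p = 0.996). Aqp1, which was above the array median on all 8 arrays, read 3420, 2066 and 584 in DCAC livers, against 1748, 1294 and 1500 in DCAA livers and 1924 and 3008 in controls.

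**Figure D4:**
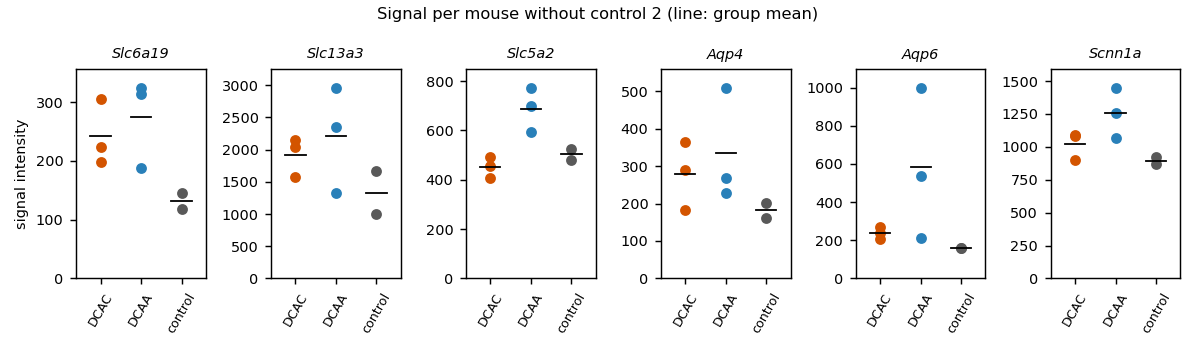
Signal intensity per mouse for 6 members, with DCAC, DCAA and control from left to right, without control 2; points are mice, lines are group means and axes start at 0. Slc6a19 was higher in all 6 treated mice than in both controls, and none of the differences passed the adjusted threshold. Slc6a19 and Aqp6 passed the filter on low signal only through treated mice.

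With control 2 kept as a control, the group's values were set by it. Miox then averaged 12731 ± 21774 (SD, n = 3) in controls, and 160 ± 99.4 (SD, n = 2) without it. Umod averaged 7016 ± 12042 (SD, n = 3), and 63.6 ± 6.65 (SD, n = 2) without it. The fitted difference of Miox was then -2.65 in log2 with DCAC and -3.16 with DCAA, against 0.03 and -0.48 with 8 arrays. That direction is fixed by having chosen genes that are high on control 2, and no test is read from it. Slc34a1 and Slc7a9 passed the filter on low signal only through control 2, since each was above the array median on 2 of the other 8 arrays. Over all probe sets, limma with 9 arrays called 0% in each of the 3 comparisons, with 1334, 3023 and 1445 at an unadjusted p under 0.05 for DCAC against control, DCAA against control and DCAC against DCAA. DCAC against DCAA uses no control for its size, and for the 25 members its differences were the same with 8 and 9 arrays.

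**Figure D5:**
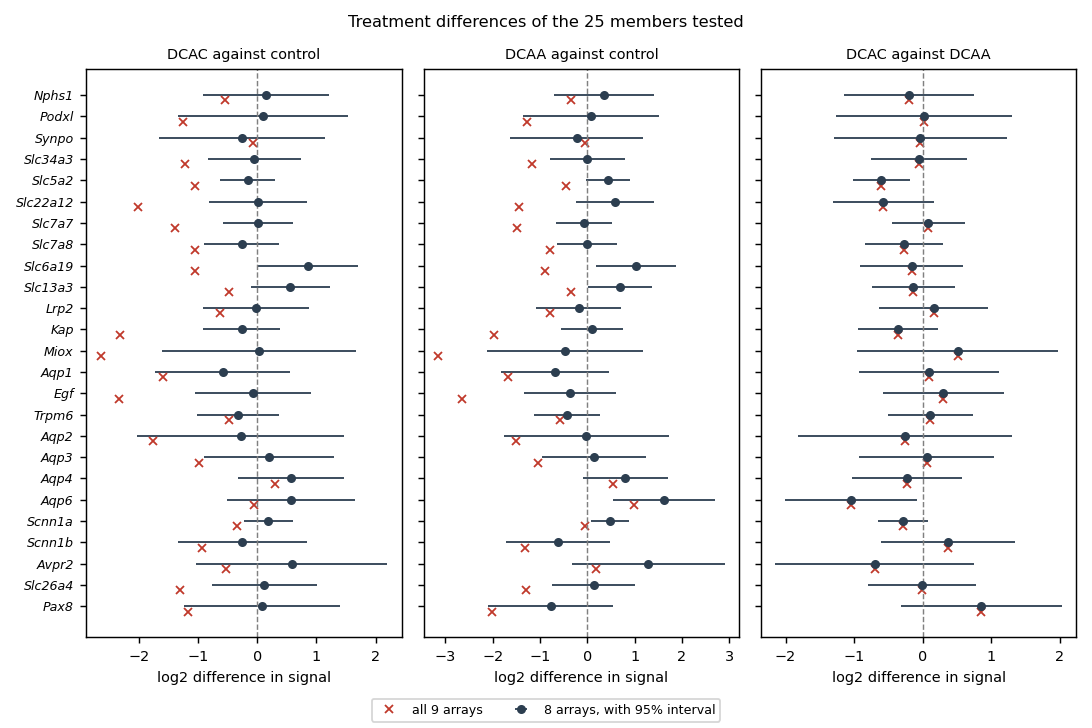
Log2 difference of the 25 members tested in the 3 comparisons; circles with 95% intervals are the fit of 8 arrays and crosses the fit of all 9. In both comparisons with control most crosses lie left of the circles, a direction fixed by the choice of genes, as for Miox at -2.65 and 0.03 with DCAC, and in DCAC against DCAA they coincide.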

How the data were processed

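The authors' deposited table gives a linear signal intensity for each probe set of the array, produced with the GCOS software per the submitters' processing notes; its version is not given in the sources used here. The file's values have a mean of 500.0 on every array once the highest and lowest 2% are removed. The 64 manufacturer's control probe sets were left out. Of the rest, 34945 have 1 gene symbol, 932 several and 9160 none in the platform annotation, and only the first kind was named. Intensities were floored at the array's 25th percentile and turned into log2. limma 3.58.1 under R 4.3.3, with lmFit and a trended eBayes (two-sided), was fitted to the 8 arrays other than control 2, all groups together, without covariates. The filter kept probe sets exceeding the array median on 3 or more arrays, and a call is an adjusted p below 0.05 (Benjamini-Hochberg, whole table). The fit was tested on simulated data. Members, lists, alternatives and the omission of control 2 were chosen with earlier results of these data known; the probe set choice by linear mean was added after the data were seen. All members are reported, with up to 3 genes per further list by ratio to the median of the others and the 3 members of smallest p per comparison. The alternatives covered normalization, floor, filter, probe set choice, eBayes settings, blocks and left-out arrays. Same-numbered arrays deviated together only weakly (correlation -0.0413 to 0.0272, other pairs -0.0668 to 0.074). Deviations within groups this small are tied to each other, so this cannot exclude a pairing or batch by number. The main fit assumed none. The design text gives separate mice, and p-values measure the spread between them.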

Additional observations from a re-analysis of the deposited data

How the results depend on the processing

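The count of 40 members above the other 8 arrays on control 2 ran from 36 to 43 across the alternatives (probe set choice, quantile normalization, common median, floor), and from 40 to 41 when leaving out each of the 8 arrays. The count at 10-fold, 22, ran from 16 to 25 and from 22 to 24. The median ratio of 11.3 became 5.56 with the probe set of smallest ratio for each gene, 15.1 with the probe set of highest linear mean, and 11.3 to 14.5 when leaving out an array. The members with their highest signal on DCAA 3 numbered 9 with a common median, against 16. No member was called for DCAC against control or DCAC against DCAA under any alternative without control 2, the replicate block included, with 0 in each. For DCAA against control 0 became 1, Aqp6 at 2.20, without DCAA 1, and leaving out each array gave 0 to 1. Aqp6 passed the filter only through treated mice, so that call is description only. With all 9 arrays the direction turned for Slc6a19, at -1.05 with DCAC and -0.89 with DCAA, for Slc13a3 with DCAC at -0.48 and for Scnn1a with DCAA at -0.0547, which the added control 2 brings about. A common median shifted the median of all probe sets to -0.12 for DCAA against control and 0.17 for DCAC against DCAA. Calls over all probe sets moved with single arrays and settings, from 0 to 14 for DCAC against control (8), 0 to 87 for DCAA against control (20) and 0 to 3 for DCAC against DCAA (1). DCAA against control had 87 without DCAA 1, 38 without DCAC 3, 3 without DCAA 3, 0 without the intensity trend and 0 with 3'/5' ratio class as a block, which gave 2 for DCAC against control. That block holds all DCAA mice in the high class and both controls in the low class, so it separates ratio from DCAA only through DCAC 3. The replicate block gave 7, 17 and 1, and the shared numbers were not taken as a pairing. A single array of its kind gives no error for control 2, and the members near the floor have ratios limited by it.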
